A study of Mus with 18 samples.

Results

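The genes described here are 10 members of the cellular defence against oxidants and metals, followed in mouse lens epithelial cells (LECs) as they responded to surgical removal of the lens fiber cells. They were taken from a list of names that was drawn up with earlier results of these data known, and are 10 of the 55416 gene IDs in each deposited table. The set holds the regulator Nfe2l2 (ENSMUSG00000015839), which encodes the transcription factor NRF2. Its target set is represented by Hmox1 (ENSMUSG00000005413), Gclm (ENSMUSG00000028124), Gclc (ENSMUSG00000032350), Nqo1 (ENSMUSG00000003849), Txnrd1 (ENSMUSG00000020250), Srxn1 (ENSMUSG00000032802) and Slc7a11 (ENSMUSG00000027737). The metallothioneins are Mt1 (ENSMUSG00000031765) and Mt2 (ENSMUSG00000031762), which are neighbours with 0 genes between them in the RefSeq gene order of assembly GRCm38.p6.

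NRF2 is held low in unstressed cells because the adaptor KEAP1 delivers it for degradation, and oxidants or electrophiles that modify KEAP1 let NRF2 accumulate without a need for more of its mRNA. NRF2 then binds antioxidant response elements with a small MAF partner, at sites that the repressor BACH1 can also occupy. Metallothioneins are small cysteine-rich proteins that bind zinc and copper and are induced through the metal-sensing factor MTF1, by glucocorticoids and by inflammatory signals. The lens relies on a large pool of glutathione, made and kept reduced in part by the epithelium, to keep its proteins clear.

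Total RNA was sequenced from 18 libraries in 6 groups of 3. WT mice (C57BL/6 per the labels), Egr1KO mice and FosBcKO mice were sampled at 0 h and at 6 h post cataract surgery (PCS), all aged 3 to 5 months, and all 6 groups had their fiber cells removed. Each library pooled LECs still attached to 5 lens capsules. Egr1KO mice carry a germline Egr1 mutation in every tissue and come from a stock of mixed B6N and 129 origin, although their libraries are labelled C57BL/6. In FosBcKO mice exons 2 and 3 of Fosb were removed by the MLR10 Cre, driven by a modified Cryaa promoter that acts in the lens, so that non-lens cells in these pools keep an intact Fosb. Whether the WT mice carried this Cre is not given in the sources used here.

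Libraries held 9609295 to 13871592 read pairs assigned to genes, and members had 35 to 9813 counts in a library, so that all 10 were tested in every comparison. Values below are counts per 1000000 counts assigned to genes (CPM) scaled by TMM over all 18 libraries, in the order of replicates 1, 2 and 3. The gene-level counts did not check the genotype labels: Egr1 was at 2101 to 4971 CPM in the Egr1KO libraries at 6 h against 1256 to 1981 CPM in WT, and Fosb was at 1506 to 1721 CPM in FosBcKO against 670 to 1490 CPM in WT, and such counts include whatever is still transcribed of an altered gene. The first principal component, with 43.6% of the variance, set the 0 h libraries (-90.3 to -39.4) apart from the 6 h libraries (23.5 to 116), except that Egr1KO 6 h replicate 1 lay between at -4.68 and FosBcKO 6 h replicate 3 had the 23.5. The lens markers Pax6 and Foxe3 were abundant in all groups, with a summed level of 291 to 911 CPM.

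The first question was how the genes respond to fiber cell removal in WT LECs. In 6 h, 5 of the 10 genes rose (Srxn1, Mt2, Mt1, Txnrd1 and Hmox1) and both subunits of glutamate-cysteine ligase, Gclc and Gclm, fell. Genes were called where the edgeR quasi-likelihood (QL) F-test gave a false discovery rate (FDR) of at most 0.05 over all genes tested and a change of more than 2-fold. By that rule 7 of 10 members were called, where 17.1% of all genes tested were called. The calls split into 5 higher, against 13.5% of all genes, and 2 lower, against 3.65% of all genes. The median log2 fold change of the members was 0.61, and that of all genes -0.02. Because these are bulk pools, a change in the RNA of each cell and a change in the share of a cell type cannot be told apart.

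Srxn1, which encodes sulfiredoxin, the enzyme that restores over-oxidized peroxiredoxins, had the largest fold change of the 10 genes in WT. It was at 35.8, 42.9 and 52.6 CPM at 0 h and at 666, 979 and 357 CPM at 6 h. The lowest 6 h library lay far above the highest 0 h library. The log2 fold change was 3.90 (SE 0.39, n = 3 per group), a 14.9-fold rise, with a QL F-test FDR of 0.00127. In Egr1KO, Srxn1 went from 20.1, 20.7 and 23.2 CPM to 70.6, 550 and 541 CPM, a log2 fold change of 4.17 (SE 0.70, QL F-test FDR 0.00917). In FosBcKO it went from 16.7, 35.0 and 19.1 CPM to 254, 421 and 93.0 CPM, a log2 fold change of 3.46 (SE 0.64, QL F-test FDR 0.0178). The 0 h and 6 h libraries did not overlap in any genotype, but the 6 h values spread over several fold within both knockouts. Overlap was looked at for the members alone, here and below, so no share of all genes stands beside it. The rise in FosBcKO lost its call without 0 h replicate 3 (QL F-test FDR 0.0617) or without 6 h replicate 1 (QL F-test FDR 0.102), and both knockouts lost it with no filter on low counts (0.0676 in Egr1KO, 0.0722 in FosBcKO).

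Txnrd1, which encodes the cytosolic thioredoxin reductase that keeps thioredoxin reduced, rose in all 3 genotypes. In WT it was at 99.0, 121 and 132 CPM at 0 h and 271, 420 and 234 CPM at 6 h (log2 fold change 1.36, SE 0.25, QL F-test FDR 0.00687). In Egr1KO the values were 90.3, 108 and 108 CPM, then 201, 324 and 378 CPM (log2 fold change 1.55, SE 0.23, QL F-test FDR 0.00523). FosBcKO libraries had 92.6, 113 and 83.1 CPM, then 277, 336 and 185 CPM (log2 fold change 1.49, SE 0.22, QL F-test FDR 0.00372). Every 6 h library was above every 0 h library of its genotype, and each was at least 1.94-fold above its own genotype's 0 h mean. In such folds of single libraries, here and below, the 0 h mean is that of the log2 CPM values. The Txnrd1 call held in every alternative tried for the 6 h against 0 h comparisons.

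Hmox1, encoding the heme oxygenase that breaks down heme, was the least even of the genes that rose. WT libraries had 14.6, 13.2 and 26.3 CPM at 0 h and 37.0, 45.1 and 36.0 CPM at 6 h. These did not overlap, and the log2 fold change was 1.09 (SE 0.28, QL F-test FDR 0.0234). That call was lost when any one of 0 h replicate 1 (FDR 0.0917), 0 h replicate 2 (0.0733), 6 h replicate 1 (0.0586) or 6 h replicate 2 (0.0576) was left out of the QL F-test. It was also lost in one QL fit of all 18 libraries (FDR 0.129). In Egr1KO the values went from 29.8, 18.3 and 26.5 CPM to 14.7, 75.9 and 36.5 CPM, so that replicate 1 at 6 h was below all 3 libraries at 0 h (log2 fold change 0.76, SE 0.52, QL F-test FDR 0.318). In FosBcKO they went from 29.1, 11.8 and 26.1 CPM to 61.0, 53.8 and 21.3 CPM, with replicate 3 at 6 h inside the 0 h range (log2 fold change 1.05, SE 0.47, QL F-test FDR 0.152). Without Egr1KO 6 h replicate 1 the gene was called in Egr1KO (log2 fold change 1.15, QL F-test FDR 0.0263), and without FosBcKO 6 h replicate 3 it was called in FosBcKO (1.31, FDR 0.0162). Each was the lowest 6 h library of its genotype. Leaving it out was bound to raise the fold, so these calls add no support to a rise. With all libraries kept, Hmox1 was called in FosBcKO by DESeq2 (log2 fold change 1.02, FDR 0.0440). It was also called there by the QL F-test with no filter on low counts (1.02, FDR 0.0188). In 14 of 17 alternatives it stayed uncalled in FosBcKO, so the call depended on the method.

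The metallothioneins rose in every genotype. Mt2 in WT went from 32.7, 27.7 and 30.7 CPM to 250, 403 and 153 CPM, an 8.64-fold rise (log2 fold change 3.11, SE 0.34, QL F-test FDR 0.00151). In Egr1KO it went from 9.32, 10.2 and 10.3 CPM to 139, 234 and 280 CPM, a 21.7-fold rise (log2 fold change 4.44, SE 0.28, QL F-test FDR 0.000282). In FosBcKO it went from 10.8, 17.4 and 21.0 CPM to 183, 373 and 162 CPM, a 14.9-fold rise (log2 fold change 3.89, SE 0.41, QL F-test FDR 0.00253). The 6 h levels of the 3 genotypes overlapped, while the 0 h levels did not, so that the genotype with the lowest start had the largest fold.

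Mt1 showed the same order of folds between WT and Egr1KO. WT libraries held 36.0, 24.8 and 52.4 CPM at 0 h and 219, 287 and 164 CPM at 6 h, a 5.78-fold rise (log2 fold change 2.53, SE 0.32, QL F-test FDR 0.00211). Egr1KO libraries held 19.5, 19.2 and 18.8 CPM, then 165, 270 and 354 CPM, a 13.6-fold rise (log2 fold change 3.77, SE 0.28, QL F-test FDR 0.000529). FosBcKO libraries held 29.3, 39.8 and 57.4 CPM, then 311, 542 and 259 CPM, an 8.95-fold rise (log2 fold change 3.16, SE 0.36, QL F-test FDR 0.00263). No 6 h library overlapped with the 0 h libraries of its genotype for either gene, and in no alternative tried was an Mt1 or Mt2 call at 6 h against 0 h lost.

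**Figure D1:**
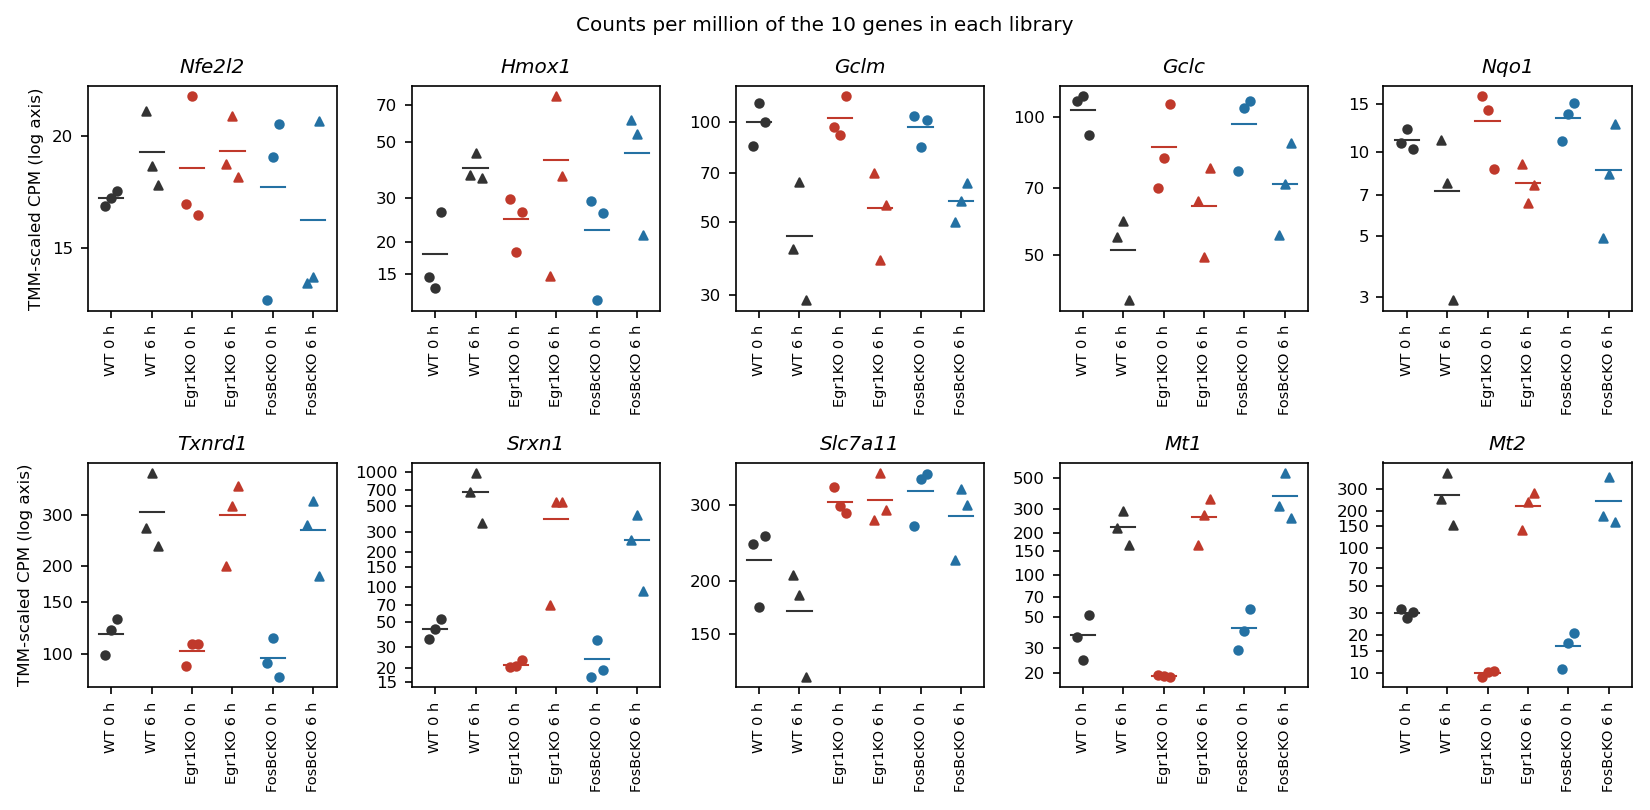
TMM-scaled CPM (log axis, its range set for each panel) of the 10 genes in each of the 18 libraries, with circles for 0 h, triangles for 6 h and a horizontal line at the arithmetic mean of the 3 libraries. Srxn1, Txnrd1, Mt1 and Mt2 separate 0 h from 6 h in all 3 genotypes, Gclm lies lower at 6 h, and Nfe2l2 stays between 13.1 and 22.2 CPM throughout.

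The enzyme that makes the first and rate-limiting product of glutathione synthesis went the other way. Gclm encodes its modifier subunit and Gclc its catalytic subunit. In WT, Gclm went from 84.7, 114 and 100.01 CPM to 41.3, 65.6 and 29.0 CPM (log2 fold change -1.17, SE 0.28, QL F-test FDR 0.0206). Gclc in WT went from 108, 111 and 91.2 CPM to 54.7, 59.2 and 39.7 CPM (log2 fold change -1.05, SE 0.18, QL F-test FDR 0.00554). Neither gene overlapped between the times in WT, and 6 h replicate 3 was the lowest for both. Without that library Gclm (log2 fold change -0.93, QL F-test FDR 0.0201) and Gclc (-0.89, FDR 0.00176) were still lower at 6 h by the FDR but no longer passed 2-fold, and the Gclm FDR passed 0.05 without 0 h replicate 2 (0.0590), 0 h replicate 3 (0.0554) or 6 h replicate 1 (0.0726).

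In the knockouts Gclm fell by less than 2-fold. Egr1KO libraries had 96.2, 91.5 and 119 CPM, then 70.2, 38.3 and 56.0 CPM (log2 fold change -0.91, SE 0.23, QL F-test FDR 0.0262). FosBcKO libraries had 104.1, 84.1 and 101 CPM, then 50.0, 57.8 and 65.4 CPM (log2 fold change -0.72, SE 0.15, QL F-test FDR 0.0119). The times did not overlap in either knockout. Gclc did not pass in them: the values went from 69.7, 81.4 and 107 CPM to 65.4, 49.4 and 77.1 CPM in Egr1KO (log2 fold change -0.44, SE 0.21, QL F-test FDR 0.174) and from 76.0, 105 and 108 CPM to 55.1, 71.3 and 87.5 CPM in FosBcKO (-0.41, SE 0.20, FDR 0.151). All 9 libraries at 6 h were nevertheless below their own genotype's 0 h mean for both Gclm (0.294 to 0.691 of it) and Gclc (0.386 to 0.921 of it).

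Slc7a11 encodes the cystine importer that supplies cysteine for glutathione. It did not pass at 6 h against 0 h in WT (log2 fold change -0.43, SE 0.24, QL F-test FDR 0.213), Egr1KO (0.00, SE 0.15, FDR 0.996) or FosBcKO (-0.16, SE 0.18, FDR 0.536). Nqo1, a quinone reductase often used to read NRF2 activity, ranged from 8.67 to 15.97 CPM at 0 h and from 2.91 to 12.6 CPM at 6 h, with the times overlapping in every genotype. Its log2 fold changes were -0.65 (SE 0.43) in WT, -0.77 (SE 0.31) in Egr1KO and -0.60 (SE 0.34) in FosBcKO, with QL F-test FDRs of 0.289, 0.109 and 0.220. Without FosBcKO 6 h replicate 3 it was called lower in FosBcKO (-1.05, QL F-test FDR 0.0381). That was its highest FosBcKO library at 6 h, so leaving it out was bound to deepen the fall.

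The mRNA of the regulator itself passed the test in no genotype. Nfe2l2 averaged 17.04 ± 0.333 CPM at 0 h and 19.2 ± 1.93 CPM at 6 h in WT (SD, n = 3), 18.4 ± 3.25 and 19.2 ± 1.64 CPM in Egr1KO, and 17.6 ± 3.95 and 16.1 ± 4.04 CPM in FosBcKO. The WT libraries did not overlap, at 16.7, 17.1 and 17.4 CPM against 21.4, 18.6 and 17.7 CPM, but the log2 fold change of 0.14 (SE 0.18) was smaller than its error (QL F-test FDR 0.598). In both knockouts the times overlapped (QL F-test FDR 0.885 and 0.807).

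Counted over the set, 4 of 10 members were called in Egr1KO at 6 h against 0 h, where 12.0% of all genes were called, and all 4 were higher, against 9.28% of all genes higher and 2.69% lower. In FosBcKO 4 of 10 were called, also higher, against 13.1% of all genes called, 11.2% higher and 1.90% lower. The 4 were Srxn1, Txnrd1, Mt1 and Mt2 in both. With the FDR alone the count was 7 in WT, where 26.2% of all genes passed, and 5 in each knockout with Gclm added, where 21.2% of all genes passed in Egr1KO and 21.8% in FosBcKO. Median log2 fold changes of the members were 0.40 in Egr1KO and 0.48 in FosBcKO, beside 0.00 and 0.05 over all genes.

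**Figure D2:**
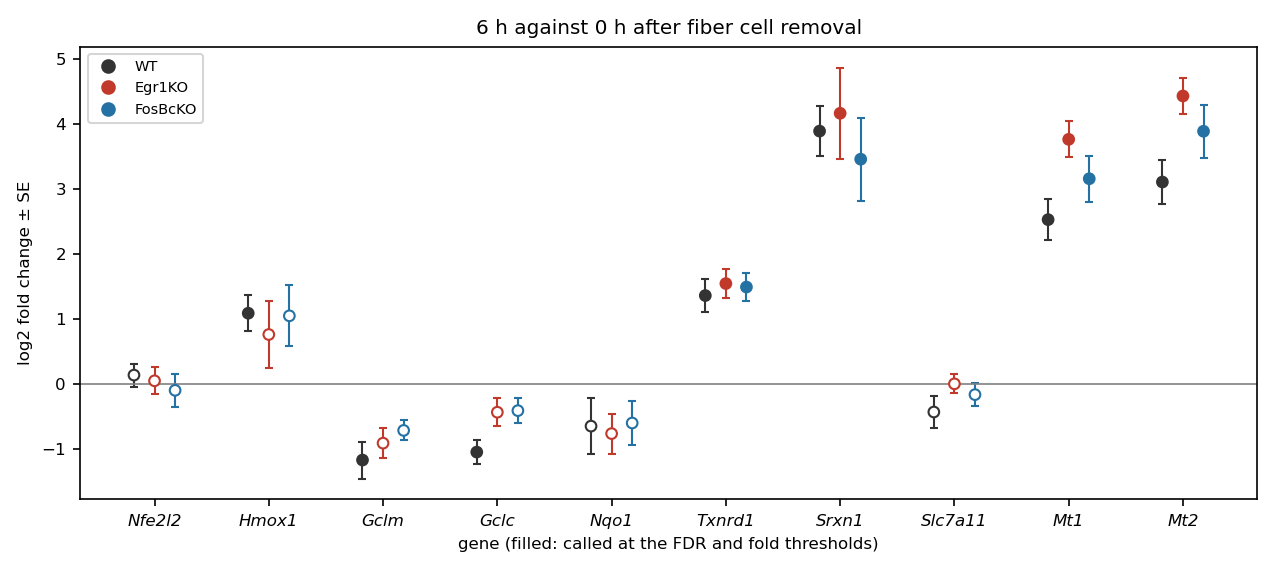
Log2 fold change of each gene at 6 h over 0 h in WT, Egr1KO and FosBcKO, with bars for the SE of the fit and filled points for genes called at an FDR of at most 0.05 and more than 2-fold. Srxn1, Mt1 and Mt2 lie above 2.5 and Txnrd1 between 1.36 and 1.55 in every genotype, and Gclm and Gclc lie below 0.

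Whether the response differed between genotypes was tested with the genotype by time interaction in one QL fit of all 18 libraries. No member passed in either knockout, where 0% of the 17469 genes tested passed in Egr1KO and 0% in FosBcKO. For Egr1KO 2 members were at an unadjusted p under 0.05, and DESeq2 called 0. These were Mt2, whose rise was 2.47-fold larger than in WT (log2 1.30, SE 0.53, unadjusted p = 0.0254, interaction FDR 0.738), and Mt1, whose rise was 2.32-fold larger (log2 1.21, SE 0.49, unadjusted p = 0.0258, interaction FDR 0.738). For FosBcKO 0 members were at an unadjusted p under 0.05 and DESeq2 called 0. Its interaction was 0.73 (SE 0.52) on the log2 scale for Mt2 and -0.49 (SE 0.91) for Srxn1. With no filter on low counts Mt1 (log2 1.26, interaction FDR 0.00339) and Mt2 (1.34, FDR 0.00146) were called in Egr1KO. The share of all genes called in that fit was not computed. Nor was the share of all genes at an unadjusted p under 0.05, so counts of members at that p are no result about the members.

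Markers of other cells also differed between the times, but not alike in all genotypes. The lens markers Pax6 and Foxe3 summed to 681 to 828 CPM at 0 h and 327 to 490 CPM at 6 h in WT. The times overlapped in Egr1KO (660 to 739, then 291 to 854 CPM) and in FosBcKO (723 to 911, then 483 to 779 CPM). Egr1KO replicate 1 and FosBcKO replicate 3 had the highest sums at 6 h. The summed level of 4 of 4 red blood cell genes was 4.16 to 6.70 CPM at 0 h and 67.1 to 171 CPM at 6 h in WT, 0.948 to 2.89 CPM and 152 to 310 CPM in Egr1KO. In FosBcKO it was 1.31 to 66.0 CPM at 0 h and 105 to 277 CPM at 6 h. FosBcKO 0 h replicate 2 carried the 66.0 CPM, close to WT 6 h replicate 1 at 67.1 CPM. Leukocyte genes (5 of 7 with an ID) summed to 1.45 to 17.4 CPM at 0 h and 11.3 to 30.5 CPM at 6 h. In WT alone the leukocyte ranges were 1.45 to 16.3 CPM and 11.3 to 13.8 CPM. Endothelial genes (2 of 2) summed to 0 to 1.58 CPM at 0 h and 1.91 to 15.9 CPM at 6 h. Pigment cell genes (3 of 4) summed to 10.7 to 75.7 CPM at 0 h and 27.0 to 299 CPM at 6 h. The genes listed for fibroblasts (2 of 2), Pdgfra and Col1a1, summed to 131 to 304 CPM at 0 h and 30.9 to 268 CPM at 6 h. Most of that sum was Pdgfra in every group, with a mean of 174 CPM in WT at 0 h against 5.86 CPM for Col1a1. The sum therefore follows 1 gene and gives no measure of a fibroblast share. Corneal keratins Krt12 and Krt5 summed to 0.499 to 28.7 CPM at 0 h and 0.546 to 289 CPM at 6 h, but to 0.832 to 6.73 CPM in Egr1KO at 6 h. The part of these cell types in the members' changes was not tested.

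Single 6 h libraries differed in how far the genes had moved. Srxn1 was 3.29-fold above its own genotype's 0 h mean in Egr1KO replicate 1 and 4.13-fold in FosBcKO replicate 3, and 8.22-fold to 25.6-fold in the other 7 libraries. Those are the 2 libraries that lay lowest among the 6 h libraries on the first principal component. Hmox1 was at 0.605 and 1.03 times its 0 h mean in them and 1.496 to 3.10 times elsewhere, and their Txnrd1 levels of 201 and 185 CPM were also the lowest of the 6 h libraries. Mt2 rose least there too within each knockout, 13.8-fold in Egr1KO replicate 1 against 23.1-fold and 27.6-fold in the other Egr1KO libraries, and 10.2-fold in FosBcKO replicate 3 against 11.4-fold and 23.3-fold. Without Egr1KO replicate 1 the members called in Egr1KO were 6 (5 higher and 1 lower), with Hmox1 and Gclm (log2 fold change -1.15, QL F-test FDR 0.00233) added, and Srxn1 was at 4.64 (FDR 1.91e-07). Without FosBcKO replicate 3 they were also 6 in FosBcKO (5 higher and 1 lower), with Hmox1 and Nqo1 added, and Srxn1 was at 3.79 (QL F-test FDR 0.000732). The share of all genes called in these fits was not computed, so the higher counts are no result about the members. The interaction counts stayed at 0 without either library. WT replicate 3 had the smallest Mt2 rise of all 9 libraries, 5.01-fold, and the lowest Gclm and Gclc levels of the 9 libraries.

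**Figure D3:**
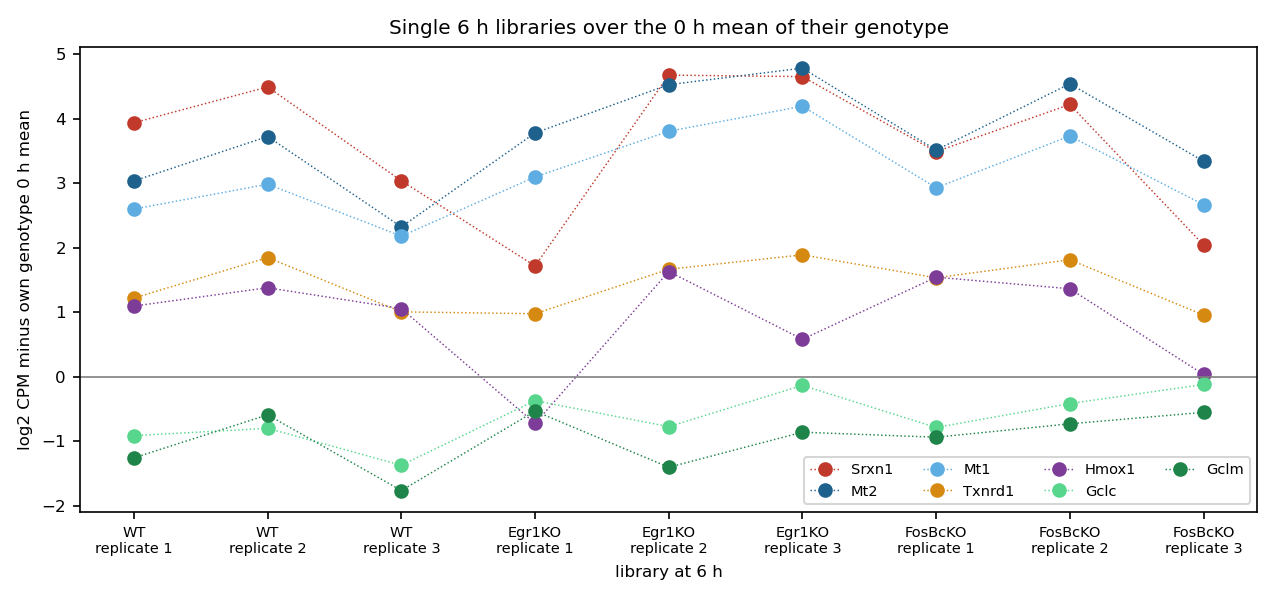
Log2 CPM of 7 genes in each of the 9 libraries at 6 h minus the mean log2 CPM of the 0 h libraries of the same genotype, each point a single library, joined by gene for the eye alone. Egr1KO replicate 1 and FosBcKO replicate 3 have the smallest rises of Srxn1 (3.29-fold and 4.13-fold) and of Hmox1, while Mt1 and Mt2 are raised in all 9.

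The second question was whether loss of Egr1 changes these genes. At 0 h the Egr1KO libraries had less Mt2, Srxn1 and Mt1 than WT. With the edgeR exact test 3 of 10 members were called, all lower, where 0.410% of all genes tested were called. Mt2 was at 9.32, 10.2 and 10.3 CPM against 32.7, 27.7 and 30.7 CPM in WT, 3.10-fold lower (log2 fold change -1.63, SE 0.17, exact test FDR 5.77e-09). Srxn1 was at 20.1, 20.7 and 23.2 CPM against 35.8, 42.9 and 52.6 CPM, 2.08-fold lower (log2 fold change -1.06, SE 0.16, exact test FDR 0.000482). Mt1 was at 19.5, 19.2 and 18.8 CPM against 36.0, 24.8 and 52.4 CPM, 2.00-fold lower (log2 fold change -1.001, SE 0.24, exact test FDR 0.0484). None of the 3 overlapped between the genotypes, and the spread lay mostly on the WT side. The share of all genes without overlap in this contrast was not computed.

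These calls were not equally firm. The Mt2 FDR stayed under 0.05 in the QL F-test of the same 6 libraries (0.00101) but not in one QL fit of all 18 (0.544). For Srxn1 the QL F-test FDR was 0.0178 on the 6 libraries and 0.959 on all 18, and without WT 0 h replicate 3 the gene was less than 2-fold lower (log2 fold change -0.90, exact test FDR 0.0146). Mt1 sat at both thresholds and lost its call in 10 of 17 alternatives, among them the QL F-test (FDR 0.178) and the exact test without WT 0 h replicate 1 (0.157) or 3 (0.329), or without Egr1KO 0 h replicate 1 (0.342), 2 (0.245) or 3 (0.411). The corneal keratins Krt12 and Krt5 summed to 4.70 to 28.7 CPM in WT at 0 h, 1.14 to 5.41 CPM in Egr1KO and 0.499 to 3.32 CPM in FosBcKO. Their part in these differences was not tested.

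At 6 h none of the 10 members was called between Egr1KO and WT, where 0.736% of all genes were called. DESeq2 also called 0, and 1 member was at an unadjusted p under 0.05 in the exact test. The share of all genes at that p was not computed. The Mt2 ranges overlapped, at 139, 234 and 280 CPM against 250, 403 and 153 CPM (log2 fold change -0.28, SE 0.39, exact test FDR 0.915), as did those of Mt1 (0.26, SE 0.33, FDR 0.899). Srxn1, at 70.6, 550 and 541 CPM against 666, 979 and 357 CPM, had a log2 fold change of -0.76 with an SE of 0.68 (exact test FDR 0.811).

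The same questions for loss of Fosb in the lens gave no calls. At 0 h 0 of 10 members were called, where 0.295% of all genes were, and DESeq2 called 0. In the exact test 3 were at an unadjusted p under 0.05, a count with no share of all genes to set beside it. Mt2 was lower in every FosBcKO library, at 10.8, 17.4 and 21.0 CPM (log2 fold change -0.90, SE 0.22, exact test FDR 0.139). Srxn1 was also below WT in every library, at 16.7, 35.0 and 19.1 CPM (-0.89, SE 0.29, exact test FDR 0.387). Replicate 2, at 35.0 CPM, lay just under the lowest WT library at 35.8 CPM, and without it Srxn1 was called lower (-1.29, exact test FDR 0.000376). Leaving out the highest FosBcKO library was bound to widen the difference, so that call adds no support to it. Mt1 overlapped with WT (0.15, SE 0.35, exact test FDR 1).

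At 6 h 0 of 10 members were called between FosBcKO and WT, where 5.41% of all genes were called, and DESeq2 called 0. In the exact test 3 were at an unadjusted p under 0.05, again with no share of all genes to set beside it. Srxn1 was at 254, 421 and 93.0 CPM against 666, 979 and 357 CPM in WT, a log2 fold change of -1.31 (SE 0.55, exact test FDR 0.160). It was called lower without WT replicate 3 (-1.64, exact test FDR 0.0354) or without FosBcKO replicate 2 (-1.88, FDR 0.0406), the libraries through which the groups overlapped. Leaving out either was bound to widen the difference, so these calls add no support to it. Mt1 was at 311, 542 and 259 CPM against 219, 287 and 164 CPM (log2 fold change 0.81, SE 0.34, exact test FDR 0.201), while Mt2 was at 183, 373 and 162 CPM against 250, 403 and 153 CPM (-0.09, SE 0.42, FDR 0.977). The leukocyte sum was 24.3 to 28.2 CPM in FosBcKO at 6 h and 11.3 to 13.8 CPM in WT, and its part in these values was not tested.

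Slc7a11 lay above WT in both knockouts and at both times without passing the test in any of the 4 contrasts. At 0 h it was at 330, 298 and 288 CPM in Egr1KO and 268, 345 and 354 CPM in FosBcKO, against 243, 174 and 254 CPM in WT. The log2 fold changes were 0.43 (SE 0.14, exact test FDR 0.488) and 0.52 (SE 0.16, FDR 0.551). At 6 h it was at 277, 357 and 291 CPM and at 224, 327 and 300 CPM, against 206, 185 and 119 CPM in WT (log2 fold change 0.89, SE 0.26, exact test FDR 0.163, and 0.81, SE 0.27, FDR 0.0873). No knockout library overlapped with the WT libraries of its time, but the share of all genes of which this holds was not computed. Both knockouts were held against the same WT libraries, so the contrasts are not independent of each other.

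The other members were called in no genotype contrast. Gclm, Gclc, Nqo1, Txnrd1, Hmox1 and Nfe2l2 overlapped with WT in all 4 contrasts, and their log2 fold changes ran from -0.29 for Gclc in Egr1KO at 0 h and for Txnrd1 in FosBcKO at 0 h to 0.55 for Gclc in FosBcKO at 6 h. The last had an SE of 0.24 and an exact test FDR of 0.304, with 55.1, 71.3 and 87.5 CPM against 54.7, 59.2 and 39.7 CPM.

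**Figure D4:**
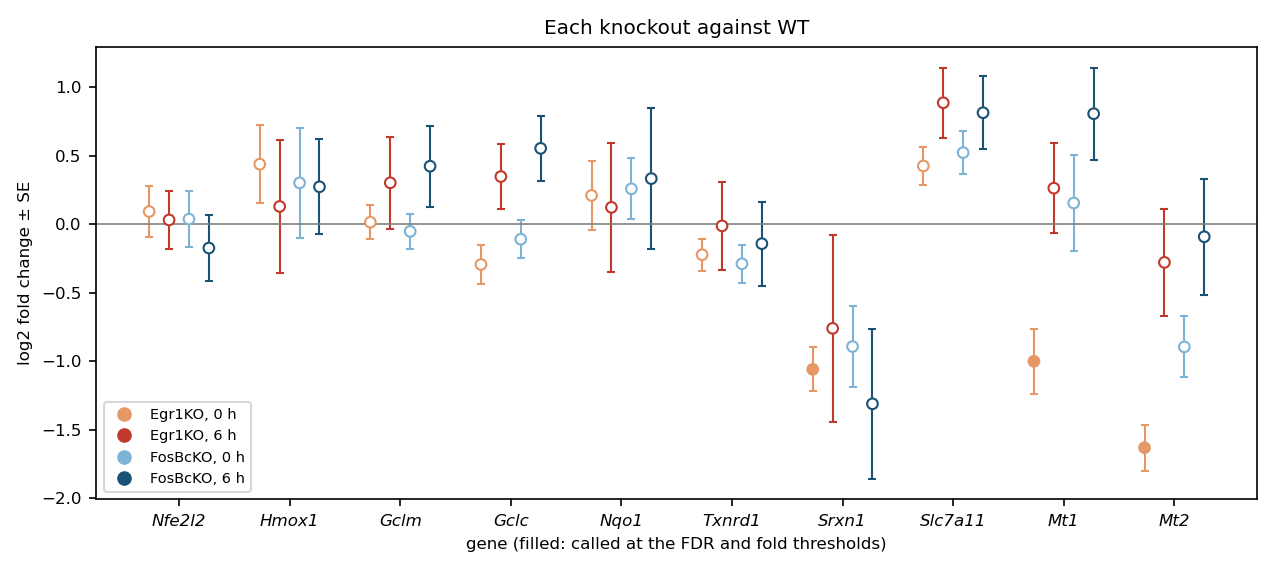
Log2 fold change of each knockout over WT at 0 h and at 6 h, with bars for the SE of the fit and filled points for genes called at an FDR of at most 0.05 and more than 2-fold. The only filled points are Mt2 (-1.63), Srxn1 (-1.06) and Mt1 (-1.001) in Egr1KO at 0 h, and Slc7a11 lies above 0 in all 4 contrasts without a call.

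Other genes of the pathway were read from lists of regulators and targets of NRF2, of metal handling and of other antioxidant enzymes. The deposited tables give IDs without symbols, and the names used here come from the study's gene tables, which list genes by their p-value in the study's own comparisons. The genes that could be named are therefore weighted towards those that changed, and their shares and medians say nothing of the whole lists. Of 9 regulators 4 could be named (Bach1, Maff, Mafk and Sqstm1), of 32 targets 14, of which 12 were tested in each comparison of times, of 8 metal handling genes 3 and of 18 other enzymes 8. The counts below use the FDR alone, with no fold minimum, a rule that 26.2% of all genes passed in WT, 21.2% in Egr1KO and 21.8% in FosBcKO.

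Of the 4 regulators, 1 rose in WT, 3 in Egr1KO and 2 in FosBcKO at 6 h, and 0 fell. Maff, a small MAF partner that pairs with NRF2 or BACH1, was the one that rose in all 3, by log2 2.54 (SE 0.27, QL F-test FDR 0.00137) in WT, 2.81 (SE 0.41, FDR 0.00602) in Egr1KO and 2.46 (SE 0.39, FDR 0.00891) in FosBcKO. Its mean went from 41.9 ± 3.25 to 251 ± 86.3 CPM in WT (SD, n = 3). Bach1, which encodes the repressor, rose in Egr1KO (1.64, SE 0.32, QL F-test FDR 0.0139). It did not pass in WT (0.94, SE 0.33, QL F-test FDR 0.0671) or FosBcKO (0.82, SE 0.36, FDR 0.139). Mafk rose in FosBcKO (1.06, SE 0.20, QL F-test FDR 0.00777). The median log2 fold change of the 4 was 0.78 in WT, 1.42 in Egr1KO and 0.94 in FosBcKO. Since naming favoured genes that changed, these medians cannot be compared with those over all genes.

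Of the 12 targets tested, 1 rose and 3 fell in WT, 2 rose and 1 fell in Egr1KO, and 1 rose and 0 fell in FosBcKO. The median log2 fold changes were -0.29, 0.07 and 0.04. In WT Ugdh, which makes UDP-glucuronic acid, rose (0.88, SE 0.27, QL F-test FDR 0.0461). The microsomal glutathione transferase Mgst1 (-1.18, SE 0.26, QL F-test FDR 0.0135), the aldehyde oxidase Aox1 (-0.97, SE 0.17, FDR 0.00613) and Ephx1 (-0.66, SE 0.21, FDR 0.0470) fell. The glutathione transferase Gsta3 rose in Egr1KO (2.57, SE 0.73, QL F-test FDR 0.0386) and in FosBcKO (1.56, SE 0.47, FDR 0.0376). Its counts at 0 h were low, at 4 to 14 in a library in Egr1KO and 13 to 30 in FosBcKO. In Egr1KO the NADPH-producing isocitrate dehydrogenase Idh1 fell (-0.72, SE 0.20, QL F-test FDR 0.0374).

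Metal handling was represented by the iron and metal ion transporter Slc11a2, the zinc exporter Slc30a1 and the transferrin receptor Tfrc, of which 1 rose in each genotype and 0 fell. It was Slc11a2 in each, with log2 fold changes of 1.65 (SE 0.22, QL F-test FDR 0.00224) in WT, 1.94 (SE 0.23, FDR 0.00242) in Egr1KO and 1.84 (SE 0.31, FDR 0.00768) in FosBcKO. The median over the 3 genes was 0.10, 0.04 and 0.13.

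Of the 8 other antioxidant enzymes 0 rose and 2 fell in WT, 1 rose and 3 fell in Egr1KO, and 4 rose and 2 fell in FosBcKO, with medians of -0.57, -0.10 and 0.22. Prdx5, a peroxiredoxin, fell in WT (-0.79, SE 0.23, QL F-test FDR 0.0355), Egr1KO (-0.79, SE 0.20, FDR 0.0274) and FosBcKO (-0.92, SE 0.19, FDR 0.0109). Prdx2, of the same family, also fell in WT (-0.64, SE 0.14, QL F-test FDR 0.0149), Egr1KO (-0.63, SE 0.16, FDR 0.0306) and FosBcKO (-0.66, SE 0.15, FDR 0.0131). Prdx6 fell in Egr1KO (-0.70, SE 0.13, QL F-test FDR 0.0110). Glutaredoxin (Glrx) rose in Egr1KO (3.21, SE 0.88, QL F-test FDR 0.0376) and FosBcKO (2.63, SE 0.58, FDR 0.0128), from means of 1.07 and 1.63 CPM at 0 h. Gpx3 (1.52, SE 0.25, QL F-test FDR 0.00489) and Sod3 (1.46, SE 0.24, FDR 0.00593) also rose in FosBcKO.

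Between genotypes none of these genes passed the FDR at 0 h, and those that passed at 6 h were higher in the knockouts. For these contrasts neither a share of all genes by the FDR alone nor its split by direction was computed. The paper describes most genes that differed in injured FosBcKO cells as higher there. The common direction is therefore no result about the list genes. Gpx3, an extracellular glutathione peroxidase, averaged 99.4 ± 53.2 CPM in WT, 381 ± 116 CPM in Egr1KO and 1247 ± 186 CPM in FosBcKO at 6 h (SD, n = 3). It was higher than WT in Egr1KO (log2 fold change 1.96, SE 0.43, exact test FDR 0.00608) and in FosBcKO (3.72, SE 0.43, FDR 1.38e-14). FosBcKO also had more Sod3, the extracellular superoxide dismutase (2.96, SE 0.42, exact test FDR 4.04e-09), Txnip, a thioredoxin inhibitor (1.68, SE 0.41, FDR 0.00404), and Mgst1 (1.36, SE 0.26, FDR 0.000340). The epoxide hydrolase Ephx1 passed the FDR at less than 2-fold (0.96, SE 0.23, exact test FDR 0.0104). At 6 h the pigment cell genes summed to 27.0 to 127 CPM in WT, 88.8 to 299 CPM in Egr1KO and 114 to 282 CPM in FosBcKO, and the leukocyte genes to 11.3 to 13.8 CPM, 14.9 to 30.5 CPM and 24.3 to 28.2 CPM. The part of either cell type in these values was not tested.

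**Figure D5:**
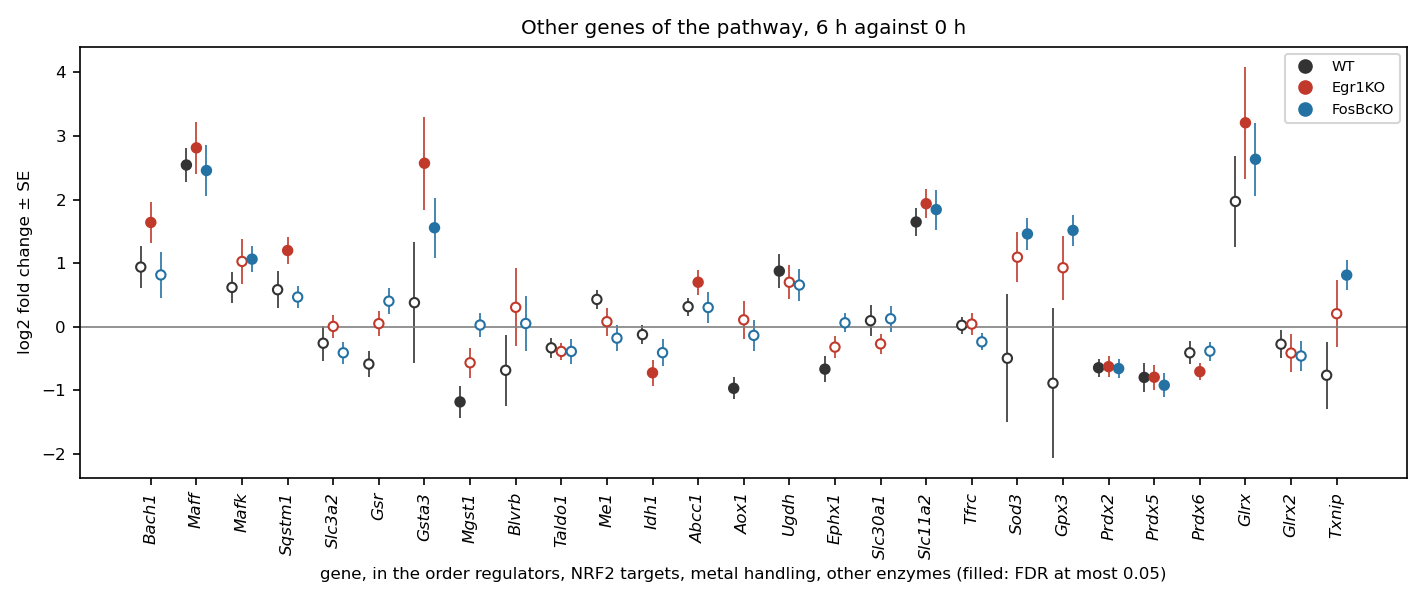
Log2 fold change at 6 h over 0 h, with bars for the SE of the fit, of the list genes that could be named, with filled points at an FDR of at most 0.05. Maff and Slc11a2 are filled above 0 and Prdx2 and Prdx5 below 0 in all 3 genotypes, while most NRF2 targets scatter around 0.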

How the data were processed

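Strand-specific, ribodepleted total RNA libraries (Takara SMARTer Pico kit) were sequenced in pairs. Per the study's methods and the submitters' processing notes, the authors used HISAT2 for alignment and HTSeq in union mode for counting by Ensembl gene, which drops pairs matching several genes. The deposited values are raw counts per gene, 1 table per library. The methods name GRCm38 and the notes GRCm39, so no coordinates are given. The strand setting of the counting and the versions of HISAT2 and HTSeq are not given in the sources used here. Summary rows of the tables, 34.4% to 48.0% of pairs, stayed out of library sizes and tests. Libraries held 9609295 to 13871592 counts, TMM factors were 0.898 to 1.14, and no 2 libraries of the same group agreed within sampling noise. Libraries of different groups were not compared in this way. Mt1 and Mt2 are similar in sequence, and pairs matching both would not have been counted.

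From the counts, edgeR 4.0.16 (R 4.3.3; filterByExpr, TMM, robust dispersions) was run on the 6 libraries of each contrast: the QL F-test for 6 h against 0 h and the exact test for knockout against WT, as in the study's methods, and a QL F-test of the interaction on all 18. P-values were adjusted by Benjamini-Hochberg over all genes tested. SEs are from the QL fit. DESeq2 1.42.0, other normalizations and filters, a replicate block and leaving out each library were the alternatives.

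The members, gene lists and markers were chosen with earlier results of these data known. Named were all 10 members, the up to 3 highest and 3 lowest list genes at an FDR of at most 0.05 per comparison of times, up to 6 list genes per genotype contrast, Egr1 and Fosb, and the 3 genes most like Nfe2l2, Hmox1 and Mt2. Markers are named beside the results they move with. Symbols were paired with IDs from the study's supplementary gene tables (ID and symbol columns alone, 7022 pairs), since the RefSeq table given has no Ensembl IDs. Lens fiber markers could not be paired (0 of 5) and are not reported. For 7 of the 10 members those tables gave the same symbol, for 0 another. Replicate numbers are in the labels. Same-numbered 0 h and 6 h libraries correlated in their deviations from the group means at 0.102, 0.230 and 0.247 in WT, over the 0.1 taken as pairing. In FosBcKO the values were 0.160, 0.0775 and 0.181. Over all genotypes 6 of 9 same-numbered pairs were over 0.1, against 0 of 18 with different numbers. WT alone had every pair over it, but pairing in FosBcKO cannot be set aside. The main tests left pairing out, and the block changed no member call at 6 h against 0 h.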

Additional observations from a re-analysis of the deposited data

How the results depend on the processing

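Over 1730 recomputed member values, 1688 kept their side of the threshold, 29 lost a call and 13 gained one. No value called in either fit changed sign, while 73 values uncalled in both did. Of 173 recomputed counts of called members 166 stayed within 1.5 times. Most of these belong to comparisons with 0 members called in the main fit, where 0 again is scored as unchanged. A fall from 7 to 5 is scored so too, and the figure says little of how firm the calls are. The count for Egr1KO against WT at 0 h (3) was 1 with a replicate block, in which Mt2 alone was called, and 0 in one fit of all 18 libraries. With no filter on low counts the Egr1KO interaction count went from 0 to 2. The cause was not tested. For fits with other filters, scaling or libraries the share of all genes called was not computed, so their counts have no background beside them. Leaving out 1 library at a time gave counts of 5 to 6 for WT (7 with all libraries), 4 to 6 for Egr1KO and 3 to 6 for FosBcKO at 6 h against 0 h. It gave 1 to 3 for Egr1KO and 0 to 1 for FosBcKO against WT at 0 h, and 0 for Egr1KO and 0 to 1 for FosBcKO against WT at 6 h. The lone 1 for Egr1KO at 0 h came without WT replicate 3, and the gains for FosBcKO were Srxn1. The replicate block changed no other count of called members. Same-numbered libraries of different genotypes shared only a number (4 of 18 pairs over 0.1). Counts of named list genes at 6 h against 0 h ran from 3 to 9 in WT (8 with all libraries), 2 to 14 in Egr1KO (11) and 7 to 11 in FosBcKO (10). Nqo1, with 35 counts in its lowest library, was the member with the least depth.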

Other observations

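The ratio of Mt1 to Mt2 counts within a library, which needs no scaling between libraries, did not overlap between genotypes at either time. It was looked at after the values of both genes had been seen. At 0 h it was 1.10, 0.893 and 1.71 in WT, 2.09, 1.87 and 1.82 in Egr1KO and 2.70, 2.29 and 2.73 in FosBcKO. At 6 h it was 0.877, 0.710 and 1.07 in WT, 1.19, 1.15 and 1.27 in Egr1KO and 1.70, 1.45 and 1.60 in FosBcKO. At both times the order was WT, Egr1KO, FosBcKO, from low to high. Averaged over the times, the ratio was 1.98-fold higher in FosBcKO than in WT, 1.49-fold higher in Egr1KO than in WT and 1.32-fold higher in FosBcKO than in Egr1KO. Since the ratio was picked after its values were seen, these differences are descriptions and no test is given. The ratio was lower at 6 h than at 0 h in the mean of every genotype, going from 1.23 ± 0.424 to 0.887 ± 0.182 in WT (SD, n = 3), from 1.93 ± 0.144 to 1.20 ± 0.0569 in Egr1KO and from 2.57 ± 0.244 to 1.58 ± 0.124 in FosBcKO. A count ratio of 2 genes also depends on their lengths and on pairs that match both.

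Over the 18 libraries and 17469 genes, the genes whose log2 CPM followed Mt2 most closely were the transcription factor Sox9 (Pearson r = 0.986), the phosphatase Dusp5 (0.979) and Esm1 (0.977). These values hold the change from 0 h to 6 h that all of them share, and over deviations from the group means they were 0.903, 0.756 and 0.781. For Hmox1 the closest were Rnf125 (r = 0.868), Akap11 (0.868) and the actin-severing Cfl1 (0.857), and over deviations 0.827, 0.879 and 0.826. For Nfe2l2 the 3 closest genes, at r = 0.866, 0.723 and 0.717, could not be named. The libraries share their depth and composition between genes, and the values are descriptions with no test.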
